A study of Mus musculus with 10 samples.

Results

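The 9 genes described here mark successive steps of the oligodendrocyte lineage: Pdgfra, Cspg4, Sox10, Nkx2-2, Gpr17, Cnp, Mbp, Mag and Mog. They were taken as a fixed list of symbols from the platform annotation, and all 9 were measured, by 23 probe sets, among 18193 genes on 10 Affymetrix arrays of mouse RNA. Brain NSC (4 arrays) were neural stem cells from the brain of adult mice that carry the Oct4-eGFP transgene OG2 and Rosa26 neo/lacZ, crossed with ICR females. The group labelled iPS (3 arrays) was induced pluripotent stem cells made from such neural stem cells with a pMX retrovirus encoding mouse Oct4, picked as GFP-positive colonies and kept on irradiated mouse embryonic fibroblasts with leukaemia inhibitory factor. The group labelled iPS-derived NSC (3 arrays) was neural stem cells derived from Oct4 iPS cells. All groups thus share the 2 transgenes, and both derived groups share the Oct4 vector. The labels do not say how many colonies or animals stand behind the arrays of a group, so the spread between arrays may be technical.

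The marker genes of the cell types went against the names of the derived groups. All 8 pluripotency markers examined were called higher in that labelled iPS-derived NSC than in either other group, with a mean level of 11.51 to 11.68 per array on the log2 scale, against 4.99 to 5.10 in the arrays labelled iPS and 5.05 to 5.13 in brain NSC. Of the 7 markers of neural stem cells and radial glia, 5 were called lower there and 0 higher, and their mean level was 7.71 to 7.74 against 11.13 to 11.18 and 11.13 to 11.35. The names are kept here as deposited, and every direction that involves a derived group follows labels that these markers contradict.

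Oligodendrocytes wrap axons in myelin, the lipid-rich sheath that speeds conduction. They arise from neural stem cells by way of a dividing progenitor, which carries the receptor PDGFRA for platelet-derived growth factor and the proteoglycan NG2, the product of Cspg4. The transcription factors OLIG2, SOX10 and NKX2-2 drive the programme, GPR17 marks precursors that have begun to differentiate, and CNP, MBP, MAG and MOG belong to myelinating cells. Cultured adult neural stem cells are known to express OLIG2.

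Promoter sequences of 6 of the 9 genes were taken from a RefSeq table of the mouse assembly GRCm38.p6 (Nkx2-2, Pdgfra, Mag, Cspg4, Cnp and Mog). A chromosome was left out of this choice, so the table may also hold promoters of the other genes. The 3 printed here belong to the genes with a called probe set in the results below, 1 that was higher and 2 that were lower in the arrays labelled iPS-derived NSC. Each runs from 250 bases before to 50 bases after the annotated start, 5′ to 3′ on the gene's strand, and capitals mark matches to the motifs searched. The Pdgfra promoter lies at chr5:75152001-75152300 (+), that of Cspg4 at chr9:56864854-56865153 (+) and that of Cnp at chr11:100574689-100574988 (+).
Pdgfra: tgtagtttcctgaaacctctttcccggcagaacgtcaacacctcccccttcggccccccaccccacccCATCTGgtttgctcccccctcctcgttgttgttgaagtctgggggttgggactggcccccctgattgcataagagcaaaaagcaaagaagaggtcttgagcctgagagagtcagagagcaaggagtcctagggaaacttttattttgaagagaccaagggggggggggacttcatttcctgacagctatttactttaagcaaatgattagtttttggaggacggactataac
Cspg4: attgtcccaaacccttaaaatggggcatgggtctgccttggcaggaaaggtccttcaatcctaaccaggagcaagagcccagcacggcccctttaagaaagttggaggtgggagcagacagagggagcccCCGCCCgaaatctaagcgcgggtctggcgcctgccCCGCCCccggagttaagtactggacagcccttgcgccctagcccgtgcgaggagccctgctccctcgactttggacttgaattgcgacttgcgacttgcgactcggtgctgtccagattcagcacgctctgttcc
Cnp: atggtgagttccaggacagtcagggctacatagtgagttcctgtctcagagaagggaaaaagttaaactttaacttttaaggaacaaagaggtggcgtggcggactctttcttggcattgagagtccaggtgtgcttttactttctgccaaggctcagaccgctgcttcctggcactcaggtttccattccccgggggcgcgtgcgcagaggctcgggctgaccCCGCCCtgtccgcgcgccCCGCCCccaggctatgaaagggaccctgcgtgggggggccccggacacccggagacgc

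The search covered both strands for 5 motifs that do not overlap in these promoters: the octamer bound by Oct4 (ATGCAAAT), the SOX core AACAAT, the E-boxes CAGCTG and CAGATG, and the GC box GGGCGG. Of the 3 printed, Cspg4 and Cnp held 2 GC boxes each and Pdgfra 0, and Pdgfra held 1 CAGATG E-box and the other printed ones 0. Of those not printed, the Nkx2-2 promoter held 1 GC box and 1 CAGATG E-box. Those of Mag and Mog held 0 matches. Of the 32851 promoters in the table, 35.7% held a GC box, 17.2% a CAGATG E-box, 16.3% a CAGCTG E-box, 10.7% the SOX core and 1.74% the octamer. The octamer, the SOX core and CAGCTG had 0 matches in the 3 printed promoters. Matches describe the letters of the window only.

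The values are the authors' RMA values, which are logarithms to base 2, so 1 unit stands for 2-fold. Differences were fitted with limma and carry its moderated standard error (SE), and p-values were adjusted with the Benjamini-Hochberg method over all 18193 genes. Calling a gene required both a difference of 2-fold or more and an adjusted p below 0.05. Unless another is named, values come from the brightest probe set of a gene. RMA values hold no detection call, so the quartiles of all 45101 probe sets on the same array serve as a yardstick for dim signals: the lower quartile was 4.22 to 4.41 and the median 5.65 to 5.72. The 3 comparisons share groups with each other.

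In the arrays labelled iPS against brain NSC, 0 of the 9 genes were called, where 1.84% of all genes were (0.951% higher and 0.890% lower), and 1 of the 9 had an unadjusted p under 0.05 in limma. In those labelled iPS-derived NSC against the arrays labelled iPS, 2 were called, Pdgfra higher and Cspg4 lower, where 25.3% of all genes were (10.8% higher and 14.4% lower). Against brain NSC 1 was called, Pdgfra, where 25.4% of all genes were (11.3% higher and 14.0% lower). These counts of 9 genes lay near or below the share of all genes. Over all 9, the median difference was 0.06, 0.28 and 0.31 in the 3 comparisons in that order, beside 0.01, 0.12 and 0.13 over all genes.

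**Figure D1:**
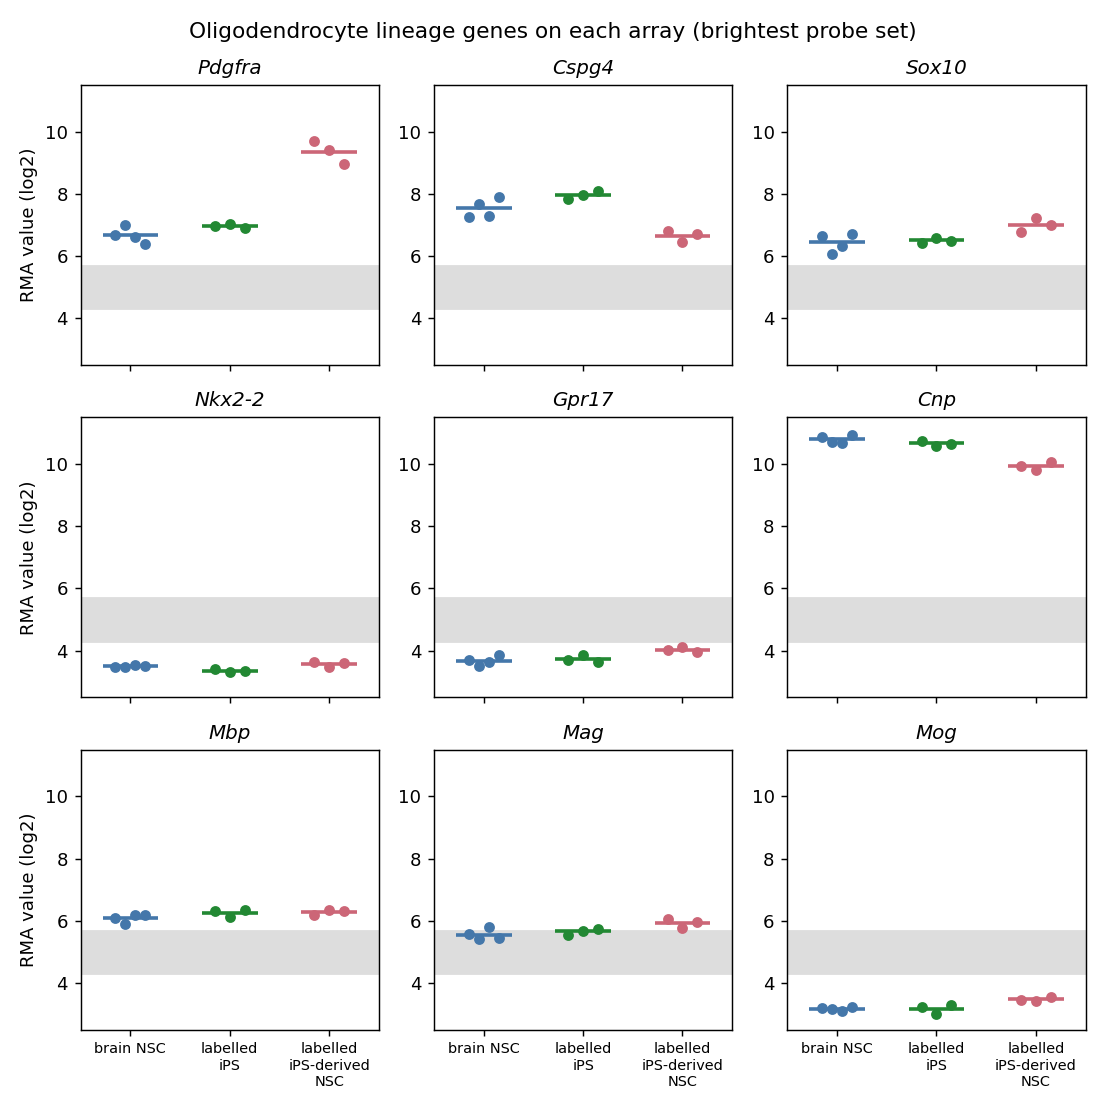
RMA values (log2, vertical axis) of the 9 genes in brain NSC (4 arrays), the labelled iPS group (3) and the labelled iPS-derived NSC group (3). Points are arrays, horizontal bars are group means, and the grey band runs from the mean lower quartile to the mean median of all probe sets. Pdgfra lies at 8.97 to 9.70 in the labelled iPS-derived NSC group and at 6.39 to 7.03 elsewhere, while Nkx2-2, Gpr17 and Mog lie below the band on all 10 arrays.

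Pdgfra encodes the receptor through which platelet-derived growth factor keeps oligodendrocyte progenitors dividing, and it was highest in the arrays labelled iPS-derived NSC. It stood there at 9.70, 9.40 and 8.97, at 6.96, 7.03 and 6.90 in the arrays labelled iPS, and at 6.67, 6.99, 6.61 and 6.39 in brain NSC. The first group lay clear of both others, which overlapped. The difference was 2.40 ± 0.17 (SE, 3 against 3 arrays; limma adjusted p = 3.18e-08) from the labelled iPS group, 5.26-fold, and 2.69 ± 0.16 (3 against 4; adjusted p = 3.88e-09) from brain NSC, 6.46-fold. In bulk RNA a change in the share of cells that express a gene and a change of RNA per cell cannot be told apart.

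The other probe sets of Pdgfra were also highest in that group. Probe set 1421916_at read 8.47, 8.21 and 7.55 in the labelled iPS-derived NSC group, 5.13 to 5.24 in the labelled iPS group and 5.49 to 5.66 in brain NSC. Probe set 1438946_at read 6.38, 6.82 and 6.22, then 3.82 to 4.0 and 3.97 to 4.28, and lay below the lower quartile on these 7 arrays. All 3 were called higher in the labelled iPS-derived NSC group in both comparisons, by 2.40 to 2.87 and by 2.34 to 2.69. Between the labelled iPS group and brain NSC they differed in sign, at 0.30 ± 0.16, -0.36 ± 0.16 and -0.19 ± 0.13, and 0 of the 3 were called.

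Pdgfra is also expressed by fibroblasts and by primitive endoderm, an extraembryonic cell type. Some markers of each, but not all, were called higher in the labelled iPS-derived NSC group. Of 10 feeder fibroblast markers, 4 were called higher than in the labelled iPS group, beside 10.8% of all genes. Higher than in brain NSC were 5, beside 11.3% of all genes, and 0 were lower in either comparison. The 5 not called there were Pdgfrb (0.47 over brain NSC), Lum (0.40), Fap (0.38), Dcn (0.36) and Twist2 (0.20). Col1a2, a fibrillar collagen chain, stood 2.97 ± 0.28 above brain NSC and Col3a1, another, 2.94 ± 0.40, though the call of Col3a1 was lost once probe sets with shared probes (suffix _a, _s or _x) were left out (0.74). The mean level of the 10 markers was 5.33 to 6.18 per array in the labelled iPS-derived NSC group, 4.61 to 4.70 in the labelled iPS group and 4.55 to 4.61 in brain NSC. Over the arrays of the labelled iPS-derived NSC group, replicates 1 to 3, the fibroblast mean was 6.18, 5.85 and 5.33 and the primitive endoderm mean 7.32, 7.12 and 7.10. On the same arrays the brightest Pdgfra probe set read 9.70, 9.40 and 8.97, 1421916_at 8.47, 8.21 and 7.55, and 1438946_at 6.38, 6.82 and 6.22. An order of 3 arrays is easily shared by chance, and it was not tested. Of 7 primitive endoderm markers, 5 and 6 were called higher than in the labelled iPS group and brain NSC, and 0 lower. The shares of all genes were again 10.8% and 11.3%. The basement membrane chain Lama1 stood 4.27 ± 0.13 and the factor Gata6 3.66 ± 0.11 above brain NSC. The mean level of the 7 markers was 7.10 to 7.32 against 5.13 to 5.24 and 4.97 to 5.23. The part of either cell type in the rise of Pdgfra was not tested. Of the other markers examined, 2 of 8 for neurons and 1 of 8 for microglia were called higher in both comparisons, beside 10.8% and 11.3% of all genes. Of 7 astrocyte markers 3 were called lower in both, beside 14.4% and 14.0%.

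Cspg4, which encodes the NG2 proteoglycan of progenitors and pericytes, ran against Pdgfra. Its brightest probe set read 6.82, 6.46 and 6.71 in the arrays labelled iPS-derived NSC, 7.82, 7.98 and 8.09 in those labelled iPS, and 7.25, 7.66, 7.29 and 7.91 in brain NSC. The first group was the lowest on every array, and the other groups overlapped. Its difference from the labelled iPS group was -1.30 ± 0.17 (adjusted p = 1.08e-05), which was called. Its difference from brain NSC was -0.87 ± 0.15 (adjusted p = 2.29e-04), short of 2-fold.

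The other probe set of Cspg4, 1423341_at, showed a wider gap. It read 5.32, 4.96 and 4.88 in the labelled iPS-derived NSC group, 7.76, 7.85 and 7.81 in the labelled iPS group, and 7.45, 7.67, 7.46 and 8.38 in brain NSC. It was called lower in both comparisons, with differences of -2.75 ± 0.21 and -2.69 ± 0.19. The size of the Cspg4 difference from brain NSC, and its call, therefore depended on the probe set. In the labelled iPS group against brain NSC the brightest probe set gave 0.43 ± 0.15 (adjusted p = 0.0657; 95% interval 0.10 to 0.77) and the other 0.07 ± 0.19. Of 9 markers of pericytes and smooth muscle, 4 were called higher and 0 lower in the labelled iPS-derived NSC group in each comparison. Of all genes, 10.8% and 11.3% were called higher. The adhesion molecule Mcam stood 2.24 ± 0.14 and the actin-binding protein Tagln 2.05 ± 0.12 above brain NSC. The 5 not called were Des (0.71 over brain NSC), Pdgfrb (0.47), Abcc9 (0.27), Rgs5 (0.17) and Kcnj8 (0.13). The part of these cell types in the difference of Cspg4 was not tested.

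Pdgfra and Cspg4 were the members whose group means spanned at least 1 on the log2 scale, and for each the most similar genes were sought by the root mean square distance between centred values over 10 arrays. For Pdgfra these were Ano9 (distance 0.18, r = 0.99), Slc25a13 (0.20, r = 0.99) and Aprt (0.21, r = 0.99). For Cspg4 they were Selenow (0.093, r = 0.99), Hmg20b (0.099, r = 0.98) and Hdac4 (0.11, r = 0.98). The 10 arrays fall into 3 groups, so these values are a description only.

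Sox10, the transcription factor that switches on myelin genes and also marks neural crest cells, showed a small difference that stayed under 2-fold. It read 6.78, 7.23 and 7.01 in the arrays labelled iPS-derived NSC, 6.44, 6.59 and 6.49 in those labelled iPS, and 6.65, 6.07, 6.33 and 6.70 in brain NSC. The first group lay above both others, by 0.50 ± 0.16 (adjusted p = 0.0140) and 0.57 ± 0.15 (adjusted p = 0.00436). Probe set 1424985_a_at gave 0.55 ± 0.11 and 0.45 ± 0.10, whereas 1425369_a_at gave -0.04 ± 0.14 and -0.05 ± 0.13 and lay below the array median on all 10 arrays. Between the labelled iPS group and brain NSC the difference was 0.06 ± 0.15 (95% interval -0.26 to 0.39).

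Nkx2-2, a homeobox factor of the lineage, and Gpr17, a receptor of committed precursors, were measured by 1 probe set each, and both lay below the lower quartile on all 10 arrays. Nkx2-2 read 3.64, 3.49 and 3.61 in the labelled iPS-derived NSC group, 3.40, 3.33 and 3.35 in the labelled iPS group and 3.48, 3.49, 3.55 and 3.52 in brain NSC. The labelled iPS group was the lowest and overlapped with neither of the others, yet its difference from brain NSC was -0.15 ± 0.08 (adjusted p = 0.223). Between the derived groups Nkx2-2 differed by 0.22 ± 0.09 (adjusted p = 0.0391). Gpr17 read 4.01, 4.11 and 3.97, then 3.69, 3.86 and 3.63, and 3.70, 3.52, 3.63 and 3.87 in brain NSC. It lay 0.30 ± 0.11 (adjusted p = 0.0266) and 0.35 ± 0.10 (adjusted p = 0.00828) above the labelled iPS group and brain NSC, both under 2-fold.

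Cnp, which encodes a phosphodiesterase of oligodendrocytes and their myelin, had larger differences than Mbp, Mag and Mog in both comparisons of the labelled iPS-derived NSC group. Its brightest probe set read 9.92, 9.80 and 10.06 in the arrays labelled iPS-derived NSC, 10.74, 10.59 and 10.65 in those labelled iPS, and 10.87, 10.69, 10.69 and 10.94 in brain NSC. The first group was lower on every array, with differences of -0.73 ± 0.11 (adjusted p = 3.67e-05) and -0.87 ± 0.10 (adjusted p = 3.19e-06), short of 2-fold in both. Probe set 1418980_a_at read 6.97, 6.76 and 6.78 there and was called lower than the labelled iPS group (7.99, 7.81 and 7.97), at -1.09 ± 0.19. Against brain NSC (7.52, 7.76, 7.53 and 8.39) it gave -0.96 ± 0.17 and was not called. Probe set 1449296_a_at gave -0.0014 ± 0.16 and -0.26 ± 0.15, so the 3 probe sets of Cnp did not move alike. All 3 carry a suffix (_x or _a) that marks probes shared between transcripts.

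Mbp, Mag and Mog, which encode myelin basic protein and both an adhesion glycoprotein and a surface glycoprotein of the sheath, were not called in any comparison. Mbp read 6.18, 6.35 and 6.30 in the labelled iPS-derived NSC group, 6.32, 6.12 and 6.35 in the labelled iPS group and 6.09, 5.89, 6.18 and 6.20 in brain NSC, and the groups overlapped. Its other 7 probe sets lay below the array median on all 10 arrays, and 3 of these lay below the lower quartile on all 10. Their differences ran from -0.12 to 0.51 between the derived groups and from -0.03 to 0.45 for the labelled iPS-derived NSC group over brain NSC.

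Mag read 6.05, 5.77 and 5.97, then 5.55, 5.66 and 5.75, and 5.57, 5.40, 5.81 and 5.45 in brain NSC. The labelled iPS-derived NSC group was 0.37 ± 0.11 above brain NSC (adjusted p = 0.0105), with overlap, and 0.28 ± 0.12 above the labelled iPS group (adjusted p = 0.0617). Mog read 3.47, 3.44 and 3.55, then 3.24, 3.01 and 3.28, and 3.20, 3.17, 3.11 and 3.22, below the lower quartile on all 10 arrays. It lay 0.31 ± 0.10 (adjusted p = 0.0138) and 0.31 ± 0.09 (adjusted p = 0.00862) above the other groups, without overlap. Small upward differences were common among dim genes: over the 7499 genes with a mean under 6, the median difference of the labelled iPS-derived NSC group was 0.19 from the labelled iPS group and 0.18 from brain NSC, and 79.9% and 80.9% of these genes lay above 0.

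Counted without a limit on fold, 7 of the 9 genes had an adjusted p under 0.05 between the derived groups, where 61.1% of all genes did, and 7 between the labelled iPS-derived NSC group and brain NSC, where 62.7% did. The count between the derived groups was 4 with quantile normalization, where the dim genes Nkx2-2, Gpr17 and Mog missed the threshold, and 5 to 7 without 1 array. Groups did not overlap for 8 and for 6 of the 9, against 69.5% and 61.3% of all genes. In the labelled iPS group against brain NSC, 0 of 9 had an adjusted p under 0.05, where 20.4% of all genes did, and 1 of 9 did not overlap (Nkx2-2), where 28.3% of all genes did not. Without brain NSC replicate 4 the count was 1, Cspg4, at 0.56 (limma adjusted p = 0.00452). With all arrays kept, the limits of the 95% intervals of all 9 between the labelled iPS group and brain NSC lay between -0.35 and 0.77. Differences of 2-fold lay outside each of these intervals. Exact two-sided permutation tests of the 9 genes gave the smallest possible p of 0.0286 for Pdgfra, Cspg4, Cnp and Mog between the labelled iPS-derived NSC group and brain NSC and for Nkx2-2 between the labelled iPS group and brain NSC (0.154 after adjustment over 27 tests), and 3 against 3 arrays cannot go below 0.1.

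**Figure D2:**
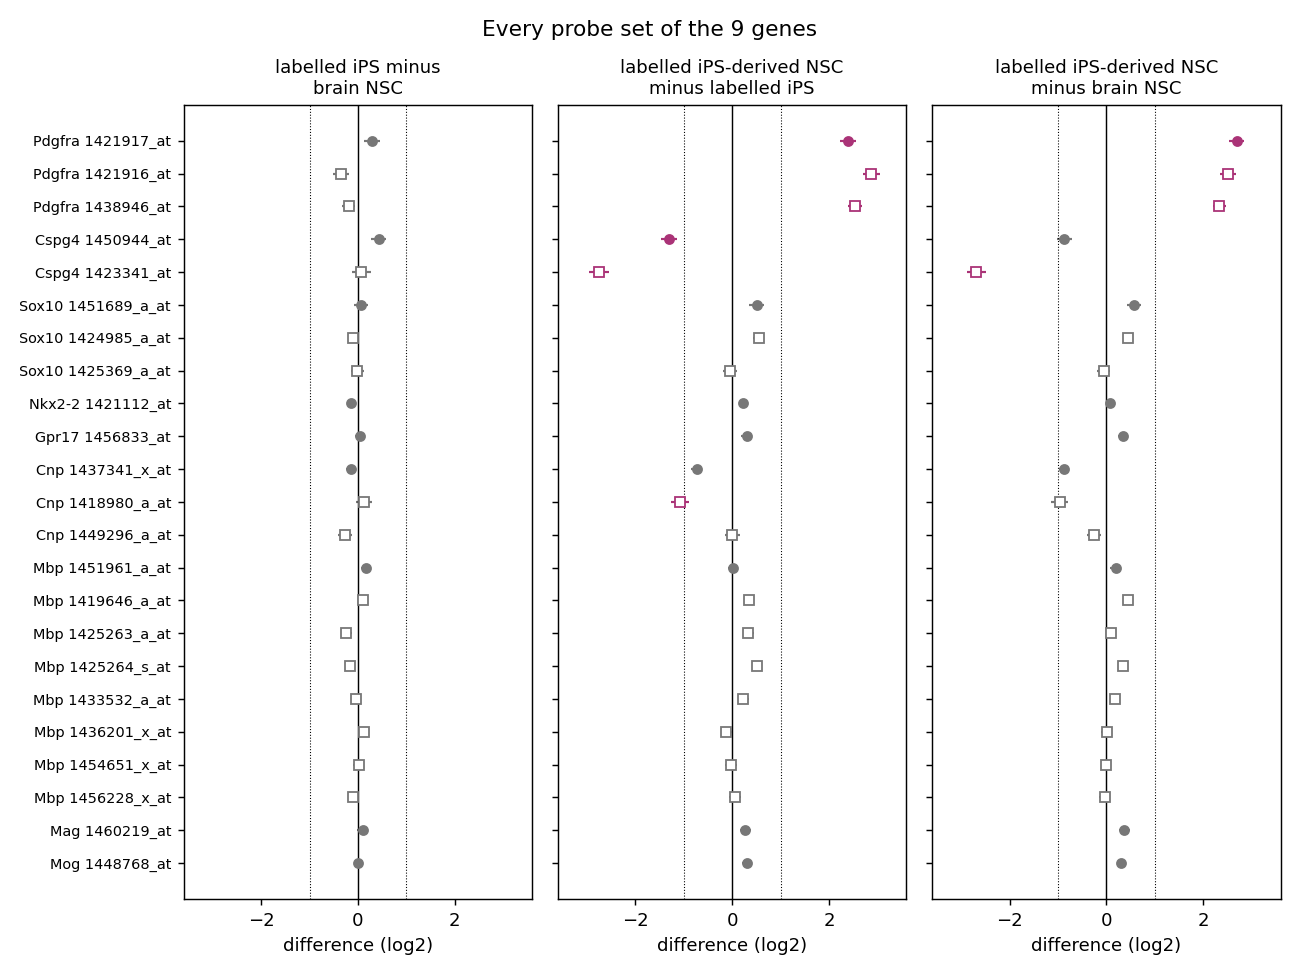
Differences (log2, horizontal axis) of all 23 probe sets of the 9 genes in the 3 comparisons. Circles are the brightest probe set of a gene, squares the others, bars are ±1 SE of limma, purple marks calls, grey the rest, and dotted lines mark 2-fold. All 3 Pdgfra probe sets are called higher in both comparisons of the labelled iPS-derived NSC group, and the 2 of Cspg4 and the 3 of Cnp differ in size.

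Over probe sets, with p-values adjusted over all 45101, 0 of the 23 were called in the labelled iPS group against brain NSC (2.19% of all probe sets), 6 between the derived groups (20.5%) and 4 for the labelled iPS-derived NSC group against brain NSC (20.6%). The 6 were the 3 of Pdgfra, the 2 of Cspg4 and 1 of Cnp. The 4 were the 3 of Pdgfra and 1 of Cspg4.

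Further genes of the lineage were taken from 4 lists by role, of which 54 of 61 members were measured. Between the derived groups 3 of the 54 were called higher and 26 lower, and in the labelled iPS-derived NSC group against brain NSC 4 were higher and 27 lower, 53.7% and 57.4% of the lists beside the 25.3% and 25.4% of all genes. Their median differences were -0.62 and -0.95. In the labelled iPS group against brain NSC 2 were higher and 3 lower, 9.26% beside the 1.84% of all genes, with a median of -0.03.

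In the labelled iPS-derived NSC group against brain NSC, 14.0% of all genes were called lower and 11.3% higher. Of 7 markers of neural stem cells and radial glia, 5 were also lower. Among 15 measured transcription factors of the lineage, 10 were lower and 1 higher in the labelled iPS-derived NSC group, with a median of -3.27. The basic helix-loop-helix factor Olig1 read 7.68, 7.72 and 7.81 there, 14.12, 14.26 and 14.16 in the labelled iPS group and 13.79, 13.85, 13.86 and 14.19 in brain NSC. Its difference from brain NSC was -6.19 ± 0.10, and that of Olig2, its relative that specifies the lineage, was -5.93 ± 0.18. Between the labelled iPS group and brain NSC they differed by 0.26 ± 0.10 and 0.32 ± 0.18, and neither was called. Myrf, a membrane-bound factor that switches on myelin genes, was the 1 that was higher: it read 7.94, 7.58 and 8.45, then 5.37, 5.68 and 5.50, and 5.48 to 5.75 in brain NSC, a difference of 2.42 ± 0.16.

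Among 17 measured genes of progenitor surface and signalling, 11 were lower and 2 higher than in brain NSC. The median was -1.96, and 14.0% and 11.3% of all genes were called lower and higher. Ptprz1, a receptor phosphatase of progenitors, differed by -7.73 ± 0.18 and Ednrb, an endothelin receptor, by -6.87 ± 0.13. The higher ones were Lpar1, a lysophosphatidic acid receptor, at 4.31 ± 0.12, and Erbb3, a neuregulin receptor, at 3.69 ± 0.10. Erbb3 is also a marker of Schwann cells and neural crest, of which 7 of 9 were measured and 2 were higher and 2 lower than in brain NSC, with Pmp22, a myelin protein gene of Schwann cells, at -4.03 ± 0.12.

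Of 14 structural myelin genes measured, 2 were lower and 0 higher than in brain NSC (median 0.18), a share of 14.3% beside the 14.0% of all genes called lower, and 3 were lower and 0 higher than in the labelled iPS group (median 0.27), 21.4% beside 14.4%. Gpm6b, a proteolipid of neural cells related to the major myelin proteolipid, differed from brain NSC by -8.10 ± 0.09, and the junctional adhesion molecule Jam3 by -1.22 ± 0.10, a call lost when its probe sets were averaged (-0.63). Of 8 measured myelin lipid genes, 4 were lower and 1 higher than in brain NSC, beside 14.0% and 11.3% of all genes. Galc, a lysosomal enzyme that degrades myelin galactolipid, differed by -2.30 ± 0.12 (-0.83 and not called when its probe sets were averaged). The fatty acid elongase Elovl1 differed by -1.89 ± 0.12 and the sulfatide enzyme Gal3st1 by 1.05 ± 0.10. Differences between these lists were not tested.

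**Figure D3:**
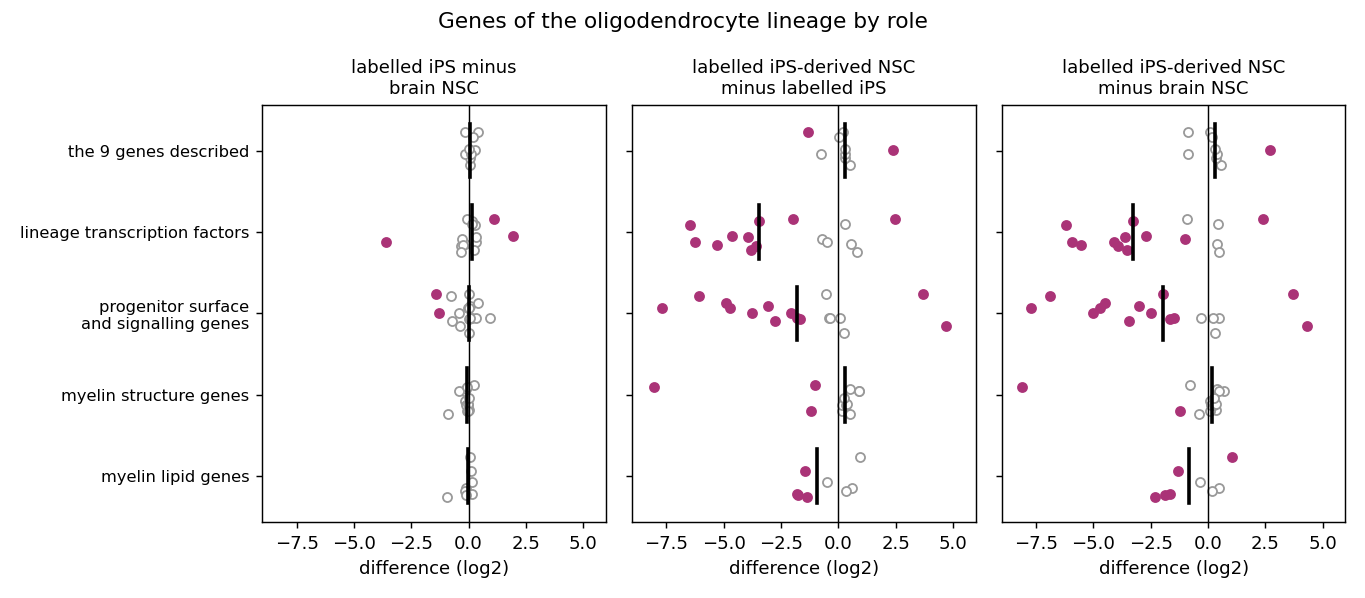
Differences (log2, horizontal axis) of the 9 genes and of the 54 measured genes of 4 further lists in the 3 comparisons. Each point is a gene, filled purple where called and open grey where not, and vertical bars are list medians; points are spread vertically only to separate them. Transcription factors have a median of -3.27 and structural myelin genes one of 0.18 in the labelled iPS-derived NSC group over brain NSC.

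In the labelled iPS group against brain NSC, the 5 called genes of these lists were the bHLH inhibitor Id2 (1.93 ± 0.10) and Sox5 (1.09 ± 0.10), both higher, and the Notch effector Hes5 (-3.58 ± 0.19), the growth factor gene Pdgfc (-1.43 ± 0.18) and the contactin Cntn1 (-1.27 ± 0.16), all lower. Pdgfa, another platelet-derived growth factor gene of these lists, went the other way from Pdgfc without a call. Its level was above brain NSC by 0.91 ± 0.13 in the labelled iPS group and by 0.50 ± 0.13 in the labelled iPS-derived NSC group. Pdgfc encodes a ligand of PDGFRA. It read 7.23, 7.19 and 7.16 in the labelled iPS group, 6.57, 6.81 and 6.61 in the labelled iPS-derived NSC group and 9.01, 8.81, 8.64 and 8.03 in brain NSC, where it was the highest. The calls of Id2 (0.43) and Sox5 (0.38) were lost when probe sets with shared probes were left out, and those of Sox5 (0.48) and Pdgfc (-0.95) when probe sets were averaged.

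**Figure D4:**
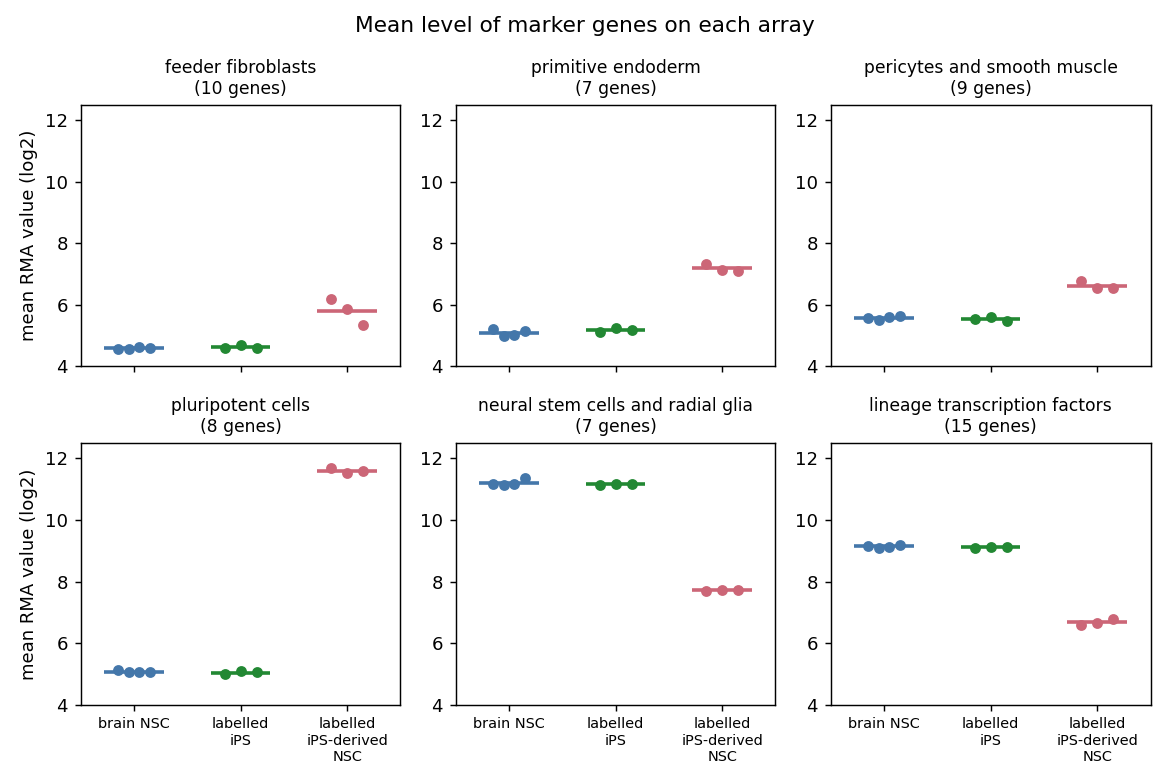
Mean RMA value (log2, vertical axis) of marker genes per array for 5 cell types and for the 15 transcription factors of the lineage. Points are arrays and horizontal bars are group means. Feeder fibroblast markers lie at 5.33 to 6.18 in the labelled iPS-derived NSC group and at 4.55 to 4.70 on the other arrays.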

How the data were processed

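RNA of 10 samples in 3 groups, taken from the sample titles, was measured on Affymetrix arrays, 1 array per sample. The authors deposited 1 log2 value for each probe set and array, computed by RMA per the submitters' processing notes. RMA corrects background, equalises the distributions of the arrays and summarises probes, which compresses differences of dim genes. Scanner files were not used here. The table held 45101 probe sets. Probe sets with 1 symbol in the platform annotation gave 18193 genes, each represented by its brightest probe set; control probe sets were left out.

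Differences were fitted with limma 3.58.1 (lmFit and eBayes) in R 4.3.3 over all 10 arrays, with 7 residual and 5.95 prior degrees of freedom. P-values were adjusted by Benjamini-Hochberg over all genes, or over all probe sets for the probe set results. The fit was tested on simulated data. The number of arrays limits the precision. Figures used Python 3.11.15 and matplotlib 3.10.9.

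The members and lists were chosen with earlier results of these data known. Named were all members; in each of the 4 lists and each comparison, the 2 largest called rises and falls; of each marker list up to 2 called genes with the largest difference; and the 3 genes most similar to each member that spanned at least 1 unit. Alternatives varied the probe set choice, dim gene filter, scaling, fit, block, fold limit and arrays. Without match in the annotation were 7 of 61 list genes.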

Additional observations from a re-analysis of the deposited data

Results flagged for a closer look

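Among the 23 probe sets of the 9 genes, the 4 arrays of brain NSC held a value far from the others for 2 dimmer probe sets of Mbp. Probe set 1425263_a_at read 5.40 in replicate 3 and 5.10 to 5.15 in the other brain NSC arrays. Probe set 1456228_x_at read 3.24 in replicate 2 and 3.54 to 3.59 in the others. Both gaps are under 0.5 on the log2 scale, and chance alone flags about 1 in 20 such groups.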

How the results depend on the processing

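A call required 2-fold, but in the test against 1.5-fold an adjusted p below 0.05 for that limit was enough. Of 195 values of the 9 genes under 8 alternatives other than leaving out 1 array, 188 kept their sign and their call. The exceptions were calls gained by Cspg4 with the mean of its probe sets (-1.78) and by Cnp when tested against 1.5-fold (-0.87), each taking the called members against brain NSC to 2, and sign changes of uncalled values: with the mean of probe sets, Pdgfra (-0.084), Sox10 (-0.018) and Mbp (-0.016) in the labelled iPS group against brain NSC; Mbp between the derived groups with median centring (-0.034); and Nkx2-2 in the labelled iPS-derived NSC group against brain NSC with quantile normalization (-0.016). The cause was not tested. Without probe sets that carry the suffix _a, _s or _x, Sox10, Cnp and Mbp have no value, and without dim genes Nkx2-2, Gpr17, Mag and Mog have none. Leaving out each array gave 0, 2 and 1 called members throughout, with Pdgfra at 2.23 to 2.59 and 2.52 to 2.89; the uncalled differences in the labelled iPS group against brain NSC ran from -0.056 to 0.15 for Sox10, -0.019 to 0.11 for Gpr17 and -0.046 to 0.087 for Mog, and that of Mbp between the derived groups from -0.058 to 0.064. In the labelled iPS group against brain NSC, 335 genes were called; this became 223 with the mean of probe sets, 183 against 1.5-fold, 537 with the replicate block and 298 to 539 without 1 array (539 without brain NSC replicate 4). Number 4 exists in brain NSC alone, so the block also takes that array out of the difference, and both gave the same differences of the 9 genes there; the block's own part cannot be told apart in this count. Adjusted p-values under 0.05 without regard to fold were less stable: Cspg4 passed in the labelled iPS group against brain NSC with the block (0.56, limma adjusted p = 0.00966) and without that array (0.00452). Between the derived groups, 7 members passed in the main fit. The count was 4 with quantile normalization, 5 with median centring and 8 with the mean of probe sets or only the groups compared. It was 2 against 1.5-fold and 5 to 7 without 1 array. Shares of all genes under these settings are not given here, so whether the shifts are particular to the 9 genes cannot be told. In the labelled iPS-derived NSC group against brain NSC 7 passed, 2 against 1.5-fold and 6 or 7 without 1 array; with quantile normalization the 7 held Mbp in place of Gpr17, as between the derived groups the block's 7 held Mag in place of Nkx2-2. In the labelled iPS group against brain NSC, the called genes of the 4 lists went from 5 to 3 with the mean of probe sets. Without those suffixes they went to 2. Replicate numbers were not taken to pair the samples, since the labels do not say that they do. Each gene's group mean was subtracted, and the deviations of same-numbered arrays of different groups were correlated. These correlations ran from -0.21 to 0.13, and the replicate block changed no 2-fold call of the 9 genes. The median difference of all genes between the derived groups was 0.12, and 0.073 with median centring.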
